A study of Mus musculus with 8 samples.

Results

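Of 112443 sites of open chromatin found in splenic dendritic cells, 968 (0.861%) had a summit in every library of 1 dendritic cell subset, none from the other subset at the site itself, and a summit of that other subset less than 1 kb away. A summit is the point of highest signal in a called peak. The sites were chosen by the presence and absence of summits in these same lists. In each library the 61737 summits with the highest score were kept, summits of all libraries at most 250 bp apart were chained into sites, and the presence of a summit in the 4 libraries of each subset decided membership. Of the 968 sites, 458 had summits in all 4 libraries of type 2 conventional dendritic cells and in no type 1 library (cDC2-only sites), and 510 had the reverse (cDC1-only sites). They made up 16.8% of the 2719 cDC2-only sites in the whole data (2.42% of all sites) and 10.5% of the 4865 cDC1-only sites (4.33% of all sites).

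The data come from ATAC-seq of cDC2 and cDC1 sorted from mouse spleen, with 2 libraries each of KO cDC2, WT cDC2, KO cDC1 and WT cDC1. KO mice carried the Hdac1 floxed allele with Mx1-Cre, WT mice the Hdac1 floxed allele without Cre, and all mice, WT included, had received poly I:C 2 weeks before the sort. Cells were taken as lineage-negative, CD11c+, MHCII+ and CD64-, and cDC2 were XCR1-CD11b+ while cDC1 were XCR1+CD11b-. Mx1-Cre is driven by an interferon-inducible promoter that poly I:C switches on in many cell types, so the deletion was not limited to dendritic cells. The strain, age and sex of the mice are not given in the sources used here. The labels do not say that the libraries of a group came from separate animals, so a p-value here reflects the spread between 2 libraries per group and that spread may be technical.

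ATAC-seq uses the Tn5 transposase, which inserts sequencing adapters where DNA is not wrapped in nucleosomes, so a summit marks the most accessible point of a promoter or enhancer. Both cDC subsets arise from a shared bone marrow precursor. The cDC1 lineage depends on the transcription factors Irf8 and Batf3 and is known for cross-presentation to CD8 T cells, while cDC2 depend on factors such as Irf4, Klf4, Zeb2 and Notch2 signalling and are known for priming CD4 T cells. Hdac1 encodes a histone deacetylase, the catalytic subunit of the Sin3, NuRD and CoREST complexes, which removes acetyl groups from histones at promoters and enhancers.

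Marker genes separated the labelled subsets in part. Cd8a, which encodes the CD8 alpha chain of splenic cDC1, was the nearest gene of 0, 1, 0 and 0 kept sites in the KO cDC2 1, KO cDC2 2, WT cDC2 1 and WT cDC2 2 libraries, against 5, 6, 6 and 7 sites in the KO cDC1 1, KO cDC1 2, WT cDC1 1 and WT cDC1 2 libraries. The number for Zeb2, a transcription factor of cDC2, was 15 to 16 in cDC2 libraries against 9 to 13 in cDC1 libraries. Cadm1, an adhesion molecule of cDC1, had 11 to 15 in cDC2 against 23 to 27 in cDC1 libraries. For Irf8 the numbers were 7 to 11 in cDC2 against 14 to 16 in cDC1 libraries. Clec4a4 had 2 to 3 in cDC2 against 0 to 1 in cDC1 libraries. Sirpa had 5 to 8 in cDC2 against 3 to 5 in cDC1 libraries. Not all markers separated the subsets in this way. Clec9a, a cDC1 receptor for dead cells, had 2 sites in every cDC2 library against 1 to 2 in cDC1 libraries. Batf3, a cDC1 transcription factor, had 9 to 10 in cDC2 against 7 to 9 in cDC1 libraries, and Itgam, which encodes the CD11b used to sort cDC2, had 7 to 10 in cDC2 against 7 to 10 in cDC1 libraries. Mpo, of neutrophil precursors, had 0 sites in every library. Hdac1 itself had 1 to 2 sites in each library of either genotype, and a list of summits cannot show whether its exons were deleted. The lists as deposited held 61737 to 78296 summits in cDC2 libraries and 74963 to 96031 in cDC1 libraries. They hold no read counts, so the depth is unknown and no counting interval could be given.

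A summit that stood at different places in cDC2 and in cDC1, in all libraries of both, was found in 28 reciprocal pairs, in which a cDC2-only site and a cDC1-only site lay within 1 kb of each other. These pairs hold 56 of the 968 sites. The median distance between the cDC2 and the cDC1 summit of a pair was 518.75 bp, with a range of 320 bp at Gm41844 to 1043.5 bp at Pkib, where 1 further site lay in between. From the best to the poorest mean rank their nearest genes were Tom1, Insig1, E4f1, Wdr36, Klf4, Abcc5, Rab21, Fadd, Rap2c, Txnrd1, Sema6b, Rftn1, Mdfic, Clip1, Dock2, Sgms1, Leprot, Gm41844, Pkib, Vopp1, Celf2, 4921504E06Rik, Adgb, Slc23a4, Adora2a, Csnka2ip, Bcl11a and Foxp1. In 17 of the 28 pairs no summit of the other subset lay at either site even among the summits below the best 61737, and in 11 pairs at least 1 did. Each list gives 1 position per peak, so a peak that spans both sites can have its summit at 1 of them only. A missing summit, at any rank, therefore does not show that a site was closed in that subset. The width of the peaks is not part of the lists.

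At 10 of the pairs both sites lay within 1 kb of an annotated transcription start. The promoter sequence of 6 of them is shown because the capitals mark the stretch between the outermost summits of the subset whose summit lay in this window (cDC2 at Abcc5, cDC1 at the other five). Each sequence covers the 250 bases before the start, 5′ to 3′ on the strand of the gene, from RefSeq on GRCm38.p6, the build of the summit lists.
Tom1 promoter, chr8:75033436-75033685, plus strand: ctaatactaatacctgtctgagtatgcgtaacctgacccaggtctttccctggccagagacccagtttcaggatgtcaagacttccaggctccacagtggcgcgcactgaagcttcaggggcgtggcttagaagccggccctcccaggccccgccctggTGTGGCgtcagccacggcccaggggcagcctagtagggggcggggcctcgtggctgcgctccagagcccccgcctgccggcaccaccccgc
Insig1 promoter, chr5:28071162-28071411, plus strand: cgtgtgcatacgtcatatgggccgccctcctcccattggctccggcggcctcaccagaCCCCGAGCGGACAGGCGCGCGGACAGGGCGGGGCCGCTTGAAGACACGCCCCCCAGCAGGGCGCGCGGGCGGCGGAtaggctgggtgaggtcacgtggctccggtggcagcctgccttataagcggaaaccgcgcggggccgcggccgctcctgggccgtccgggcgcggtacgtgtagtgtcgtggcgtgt
Klf4 promoter, chr4:55532476-55532725, minus strand: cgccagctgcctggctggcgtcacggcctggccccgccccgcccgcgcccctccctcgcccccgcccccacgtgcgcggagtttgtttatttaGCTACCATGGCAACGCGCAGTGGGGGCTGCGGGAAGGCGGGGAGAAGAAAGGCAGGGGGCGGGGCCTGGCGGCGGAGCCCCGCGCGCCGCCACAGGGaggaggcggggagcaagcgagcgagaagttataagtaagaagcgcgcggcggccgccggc
Rap2c promoter, chrX:51018019-51018268, minus strand: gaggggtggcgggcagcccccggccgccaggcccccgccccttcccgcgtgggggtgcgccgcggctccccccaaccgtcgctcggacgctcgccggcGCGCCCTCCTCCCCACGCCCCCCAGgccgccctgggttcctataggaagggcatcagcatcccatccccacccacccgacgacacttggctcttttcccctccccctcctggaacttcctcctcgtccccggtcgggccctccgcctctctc
Sema6b promoter, chr17:56133853-56134102, minus strand: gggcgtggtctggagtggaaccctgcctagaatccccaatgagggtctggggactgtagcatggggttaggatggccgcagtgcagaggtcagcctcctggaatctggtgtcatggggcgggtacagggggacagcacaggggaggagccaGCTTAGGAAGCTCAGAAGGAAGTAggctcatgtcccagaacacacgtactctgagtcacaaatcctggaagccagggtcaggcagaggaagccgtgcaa
Abcc5 promoter, chr16:20426395-20426644, minus strand: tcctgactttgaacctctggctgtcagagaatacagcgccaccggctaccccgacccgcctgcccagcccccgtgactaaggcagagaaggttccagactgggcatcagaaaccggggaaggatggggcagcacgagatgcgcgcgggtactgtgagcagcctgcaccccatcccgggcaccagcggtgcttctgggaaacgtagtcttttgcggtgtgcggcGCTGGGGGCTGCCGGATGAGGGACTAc

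The stretch in capitals was 6 bases long at Tom1, where all 4 cDC1 libraries placed the summit within these 6 bases, 25 at Rap2c, 24 at Sema6b, 26 at Abcc5, 76 at Insig1 and 97 at Klf4. The promoters of the pairs were rich in G and C. Over the 8 pair promoters whose window held a summit, these 6 with Fadd and Clip1, the G and C content had a median of 67.8% and a range of 59.2% to 75.2%, beside a median of 55.6% over all 21263 promoters of this length. The GC box GGGCGG, the core bound by Sp1 and KLF factors, searched on both strands, occurred in 7 of the 8 and in 42.6% of all promoters. It lay inside the stretch spanned by the summits at Insig1, Klf4 and Fadd. The CCAAT box (CCAAT) occurred in 2 of the 8 (Insig1 and Sema6b) and in 35.4% of all promoters. The PU.1 core GAGGAA occurred in 2 (Rap2c and Sema6b) and in 22.2% of all, and the AP-1 motif TGANTCA in 1 (Sema6b) and in 6.13% of all. The ETS core CCGGAA, whose letters GGAA are also the end of the PU.1 core, occurred in 0 of the 8 and in 15.0% of all promoters. These are matches of letters in a window of 250 bases. The 8 were chosen for holding a summit, while all promoters include those without one. A comparison with other promoters that hold a summit was not made, so these traits are not shown to be particular to the pairs. The part of G and C content in the GC box count was not tested.

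Tom1, an adaptor of endosomal sorting, held the best-ranked pair (chromosome 8). The cDC2 summits lay at 75034018 and 75034015 in KO cDC2 and at 75033996 and 75034012 in WT cDC2, and the cDC1 summits at 75033599 and 75033600 in KO cDC1 and at 75033599 and 75033595 in WT cDC1. The median cDC2 summit was 327.5 bp past the transcription start and the median cDC1 summit at -87 bp, before it. The rank of the summit by score within its library, where 1 is the best of 61737, was 800, 499, 551 and 350 in the libraries KO cDC2 1 and 2 and WT cDC2 1 and 2, against 1899, 1494, 1370 and 1656 in KO cDC1 1 and 2 and WT cDC1 1 and 2. The ranks of the subsets did not overlap. The positions of a pair cannot overlap, since the rule chose pairs with the subsets at separate sites.

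Insig1, whose protein holds the sterol sensor SCAP in the endoplasmic reticulum and restrains sterol synthesis, had cDC2 summits at 28072017 and 28072021 in KO cDC2 and 28071964 and 28071985 in WT cDC2 on chromosome 5. Its cDC1 summits were at 28071276 and 28071241 in KO cDC1 and 28071220 and 28071295 in WT cDC1. The subsets were 742.5 bp apart, with the cDC2 summit 589 bp inside the gene and the cDC1 summit at -153.5 bp, before the start. Ranks were 2309, 2778, 2467 and 973 in the cDC2 libraries and 888, 1161, 3322 and 2650 in the cDC1 libraries, so the ranks of the subsets overlapped.

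Klf4, a zinc finger transcription factor that a part of the cDC2 lineage needs, was the cDC2 identity gene among the pairs (chromosome 4, minus strand). The cDC2 summits stood at 55533034 and 55532964 in KO cDC2 and at 55533024 and 55532960 in WT cDC2. The cDC1 summits stood at 55532632 and 55532536 in KO cDC1 and at 55532632 in both WT cDC1 libraries. Both lay upstream of the start, with medians of -519 bp in cDC2 and -157 bp in cDC1, 362 bp apart. The ranks overlapped, at 8322, 6048, 8355 and 4647 in the cDC2 libraries and 7544, 7311, 7189 and 8517 in the cDC1 libraries.

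The 10 pairs did not all have the same order relative to the start. The cDC1 summit was the nearer to the start in 8 and the cDC2 summit in 2, at Abcc5 and Fadd. Abcc5, an exporter of cyclic nucleotides, had cDC2 summits at 20426396 and 20426421 in KO cDC2 and 20426398 and 20426396 in WT cDC2 on chromosome 16, a median of -3 bp from the start. Its cDC1 summits, at 20426029 and 20425971 in KO cDC1 and 20426018 and 20425963 in WT cDC1, had a median of 399.5 bp past it. The ranks were 4083, 2937, 2560 and 2201 in the cDC2 libraries against 10904, 11903, 11002 and 14942 in the cDC1 libraries, without overlap.

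Fadd, the adaptor that links death receptors to caspase 8, had cDC2 summits at a median of -11 bp and cDC1 summits 504.5 bp past the start (chromosome 7). The cDC1 positions varied more here, at 144581832 and 144582041 in KO cDC1 and 144582048 and 144581727 in WT cDC1, against 144582529 and 144582502 in KO cDC2 and 144582402 and 144582401 in WT cDC2. The nearest summits of the subsets were 353 bp apart. Fadd ranks were 9967, 8632, 6811 and 9177 in the cDC2 libraries and 7281, 8441, 9606 and 9377 in the cDC1 libraries, so they overlapped.

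At the other five pairs near a start the cDC1 summit was nearer to the start, and in 3 of these the cDC2 summit lay past the start. At E4f1, which encodes a transcription factor and ubiquitin ligase, the cDC2 summit was 552.5 bp and the cDC1 summit 35 bp past the start. At Rab21, a small GTPase of endosomes, the distances were 608.5 bp in cDC2 and 76.5 bp in cDC1. At Clip1, a protein of growing microtubule ends, they were 519.5 bp in cDC2 and -0.5 bp in cDC1. At Rap2c, a Ras-like GTPase, the cDC2 summit lay farther upstream, at -890 bp, and the cDC1 summit at -143 bp. Sema6b, a transmembrane semaphorin, had the same arrangement, with -919 bp in cDC2 and -81 bp in cDC1. At Rab21, Rap2c and Sema6b the start used lay inside the annotated gene span. Both sites of these pairs were inside the gene, more than 1 kb from its ends, so upstream is relative to that start. Wdr36, a protein of ribosomal RNA processing on chromosome 18, had both sites within 1 kb of a gene end, 375 bp apart. Starts on that chromosome were not used here.

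**Figure D1:**
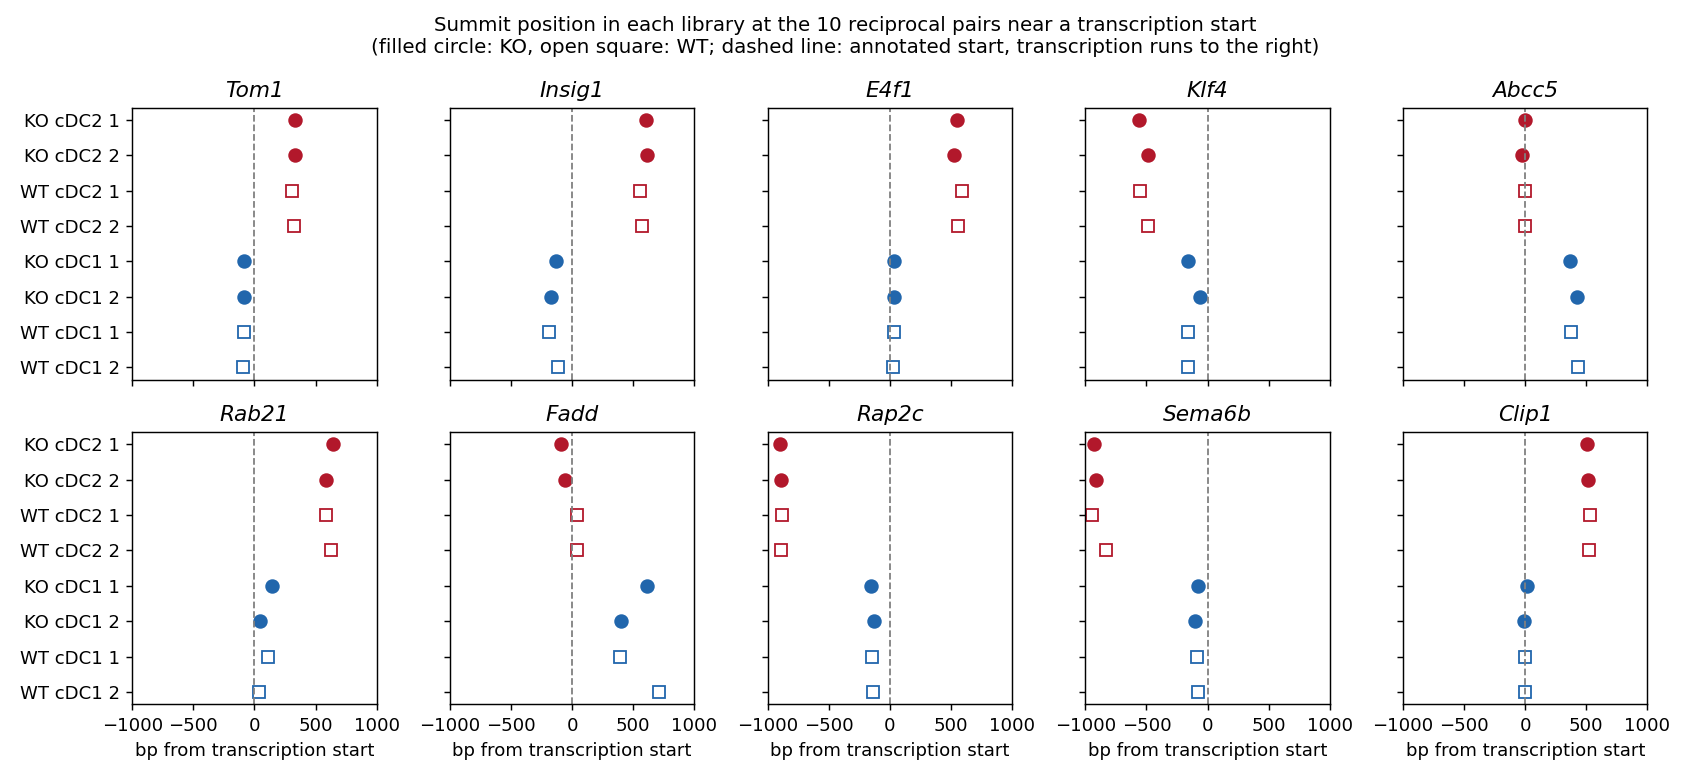
Position of the summit in each library at the 10 reciprocal pairs near a transcription start, in bp from the start on the horizontal axis (negative is upstream), with 1 library per row, cDC2 in red, cDC1 in blue, KO as filled circles and WT as open squares. The rule sets the separation of the subsets in each panel, and the cDC1 group is nearer to the dashed line except at Abcc5 and Fadd.

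Including Wdr36, 18 pairs were not at an annotated start, and 11 of these had both sites inside genes. Not every gene had an annotated start here, so some of the 18 may lie at a start that was not used. Dock2, an activator of Rac needed for leukocyte migration, had a cDC2 and a cDC1 summit 367 bp apart, and Rftn1, a lipid raft protein, 396.5 bp apart. The summits at Adora2a, an adenosine receptor gene, were 421.5 bp apart. Bcl11a, a transcription factor of lymphoid progenitors and plasmacytoid dendritic cells that is also present in cDC2, had a pair inside the gene 971 bp apart. Its ranks were poorer, at 27605, 41109, 29442 and 45812 in the cDC2 libraries and 58145, 52603, 34381 and 29487 in the cDC1 libraries.

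For most of the 968 sites the word shift does not describe what was found. The site of the nearest other-subset summit was also found in all 4 libraries of the site's own subset for 234 of 458 cDC2-only sites (51.1%) and 204 of 510 cDC1-only sites (40.0%). There the own subset had both summits in all 4 libraries, and the other subset had the neighbouring one in at least 1 library. That neighbouring site was found in all 8 libraries for 159 of the 234 and 152 of the 204 sites. In a further 141 cDC2-only sites (30.8%) and 157 cDC1-only sites (30.8%) the neighbouring site was found in 1 to 3 libraries of the own subset. Among kept summits, the neighbouring site was free of own-subset summits, as the label requires, for 83 cDC2-only sites (18.1%) and 149 cDC1-only sites (29.2%). Together these were 232 of 968 (24.0%). Counting also the summits not kept, 41 of the 83 and 103 of the 149 had no other-subset summit at the site itself. The remaining ones had such a summit there. Own-subset summits that were not kept were not counted at the neighbouring site. Of these 232, the neighbouring summit was called in all 4 libraries of the other subset for 54 and in 1 library only for 119.

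The neighbouring summit was often a weak or partial call. An other-subset summit within 1 kb was present in all 4 of its libraries at 218 of 458 cDC2-only sites (47.6%) and 214 of 510 cDC1-only sites (42.0%). It was present in 1 library only at 112 cDC2-only and 150 cDC1-only sites. Examples of such single calls were Zeb2, Dtx1, Notch2 and Cadm1, described with the gene lists.

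The distance to the nearest other-subset summit had a median of 575 bp at cDC2-only sites (middle range from the 25th to the 75th percentile 421.25 to 756.5 bp) and of 627.5 bp at cDC1-only sites (456.25 to 825.25 bp). Sites beside a site of both subsets had median gaps of 590 bp in cDC2 and 716.5 bp in cDC1. Sites whose neighbour was absent from the kept own-subset summits had shorter gaps, with medians of 484 bp in cDC2 and 527 bp in cDC1. They were also better ranked, with a median mean rank of 34149 in cDC2 and 32863 in cDC1, against 39251 in cDC2 and 37947 in cDC1. These distances and ranks belong to the values that chose the sites and are a description. A site as found in its 4 libraries was narrow, with a median of 89.5 bp (at most 480 bp) between the outermost summits of cDC2-only sites and 74 bp (at most 352 bp) for cDC1-only sites. The rule itself keeps every gap above 250 bp.

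**Figure D2:**
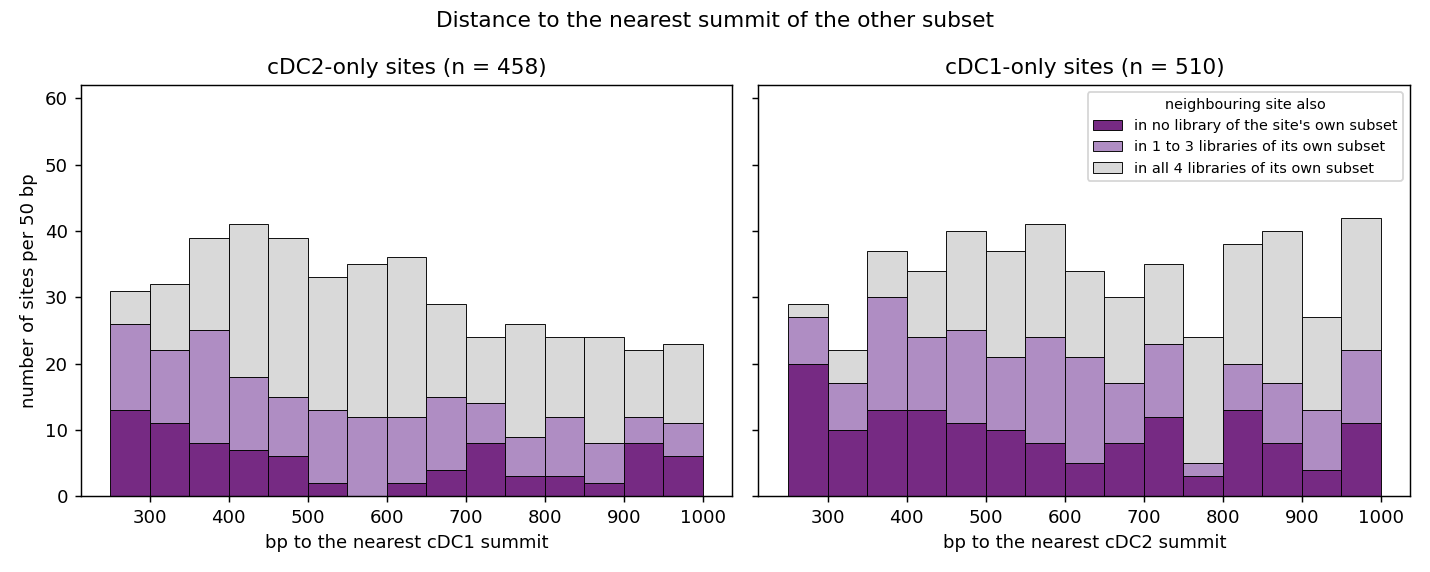
Number of cDC2-only sites (left) and cDC1-only sites (right) in bins of 50 bp of the distance to the nearest summit of the other subset, with colours for how many libraries of the site's own subset had a summit at that neighbouring site. The grey portion, where the own subset had the neighbouring summit in all 4 libraries, holds 234 of the 458 cDC2-only and 204 of the 510 cDC1-only sites.

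The limits of the rule cut through a continuous range. Just inside the limit of 1 kb were a cDC2-only site on chromosome 14 without a gene within 50 kb (gap 999 bp), a cDC1-only site at Sh3bp5l (998 bp) and a cDC1-only site on chromosome 1 without a gene (997 bp). Just outside were cDC1-only sites at Gpr141 (1001 bp) and Lhx9 (1001 bp) and a cDC2-only site at Gbx1 (1003 bp). At the lower limit, sites at Cobll1 and Pzp and another on chromosome 18 had gaps of 252 bp. At Tmod3, with summits of both subsets in all 4 libraries, the nearest of them 250 bp apart, the subsets counted as sharing a site, as did those at 1700025G04Rik (250 bp) and Zfp451 (249 bp).

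The neighbouring site was found in all 8 libraries for 159 cDC2-only and 152 cDC1-only sites. Sites found in all 8 libraries were better ranked throughout, and the choice of such neighbours bears on the ranks that follow. Within its own subset the neighbour was ranked better than the subset-only summit at 141 of 159 cDC2-only sites and at 130 of 152 cDC1-only sites. In the libraries KO cDC2 1 and 2 and WT cDC2 1 and 2 the median rank of the cDC2-only summits was 40235, 41061, 38987 and 37551, and that of their neighbours 19460, 19545, 17324 and 18097. In the libraries KO cDC1 1 and 2 and WT cDC1 1 and 2 the median rank of the cDC1-only summits was 36185, 39755, 35001 and 35105, and that of their neighbours 19696, 21636, 18112.5 and 19754. The shared neighbour of a cDC2-only site was ranked better in cDC2 than in cDC1 at 99 of 159 sites (62.3%), where 52.6% of all 8-library sites were ranked better in cDC2. The shared neighbour of a cDC1-only site was ranked better in cDC1 at 75 of 152 sites (49.3%), beside 47.4% of all 8-library sites.

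The 968 sites ranked close to the other subset-only sites and poorer than sites found in every library. In the 8 libraries the median rank of a library's own sites of this kind was between 32664 and 39286, that of its other subset-only sites between 32320 and 37577, and that of sites found in all 8 libraries between 16132 and 16913. The rule read presence among the best 61737 summits, and some absences were those of a weaker summit. Among the deposited summits left out of that number, a cDC1 summit lay at 243 of the 458 cDC2-only sites (53.1%) and a cDC2 summit at 105 of the 510 cDC1-only sites (20.6%). The corresponding shares at the other subset-only sites were 53.6% of 2261 cDC2-only sites and 14.8% of 4355 cDC1-only sites, the second of them lower than at the sites described here. In KO cDC2 1 a left-out summit lay at 5.49% of the 510 cDC1-only sites and 3.40% of the other cDC1-only sites, in KO cDC2 2 at 14.5% of the 510 and 10.9% of the others, and in WT cDC2 1 at 5.10% of the 510 and 2.62% of the others.

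These left-out summits followed the length of the lists. The library KO cDC1 2, with 96031 deposited summits, had 175 of them at the 458 cDC2-only sites, against 60, 65 and 74 in KO cDC1 1, WT cDC1 1 and WT cDC1 2. The cDC2 libraries had 28, 74, 26 and 0 at the 510 cDC1-only sites, in the order KO cDC2 1, KO cDC2 2, WT cDC2 1 and WT cDC2 2, and the last of these had no summits left out. The score at the limit was 4.01, 4.92, 3.56 and 1.31 in these cDC2 libraries and 4.53, 7.21, 4.93 and 4.95 in KO cDC1 1, KO cDC1 2, WT cDC1 1 and WT cDC1 2. The limit of 61737 was therefore stricter in the longer lists, and its part in the results was not tested beyond the counts with other limits. With KO cDC1 2 left out, 530 cDC2-only and 698 cDC1-only sites met the rule on the remaining libraries, and 944 of the 968 sites and all 28 pairs were among them.

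**Figure D3:**
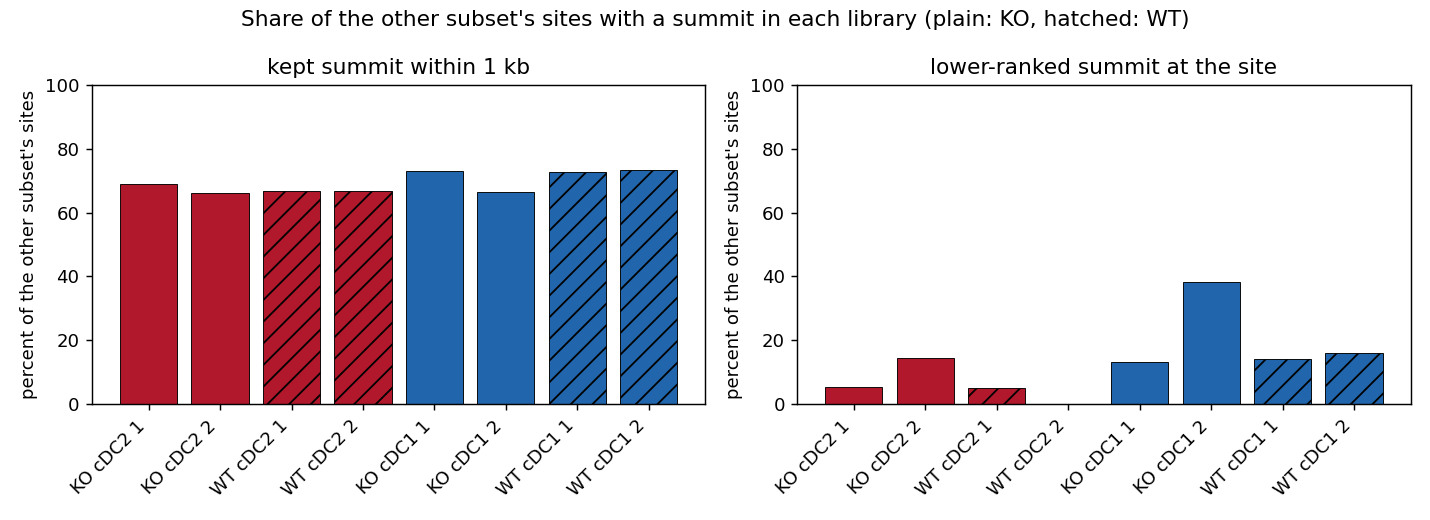
Percent of the other subset's sites (510 cDC1-only sites for the cDC2 libraries in red, 458 cDC2-only sites for the cDC1 libraries in blue) at which each library had a summit among its best 61737 within 1 kb (left) or a lower-ranked summit at the site itself (right), with KO plain and WT hatched. The near summits were at 66.3% to 73.4% of the sites in every library, and the lower-ranked summits were most frequent in KO cDC1 2.

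The share of sites at gene ends stood between that of the other subset-only sites and that of sites found in every library. A site was within 1 kb of either end of a protein-coding gene for 69 of 458 cDC2-only sites (15.1%) and 54 of 510 cDC1-only sites (10.6%). The shares were 4.20% at the other cDC2-only sites, 3.51% at the other cDC1-only sites, 31.1% at sites found in all 8 libraries and 16.1% at all sites. Sites inside genes and farther from their ends were 213 (46.5%) of the cDC2-only and 258 (50.6%) of the cDC1-only sites, and sites outside genes were 176 (38.4%) of the cDC2-only and 198 (38.8%) of the cDC1-only sites. The rule asks for another summit close by, and sites at gene ends are where 8-library summits were frequent. How far that sets these shares was not tested.

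Measured from annotated transcription starts, 67 of 439 cDC2-only sites (15.3%) and 44 of 489 cDC1-only sites (9.0%) lay within 1 kb of a start, beside 2.16% of the other cDC2-only, 1.36% of the other cDC1-only and 27.9% of the 8-library sites. Chromosome 18 is not part of these counts. A start was annotated for 17492 of the 21887 protein-coding genes, so sites at the starts of the remaining genes are missed in all of these shares. For 58 of the cDC2-only and 36 of the cDC1-only sites the nearest other-subset summit was within 1 kb of the same start. The cDC2-only summit was a median of 568.5 bp from the start and its neighbour 99.5 bp, and the cDC1-only summit was 508.5 bp and its neighbour 241.5 bp from it. The subset-only summit was the nearer of the 2 at 8 of 58 cDC2-only sites and at 16 of 36 cDC1-only sites.

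**Figure D4:**
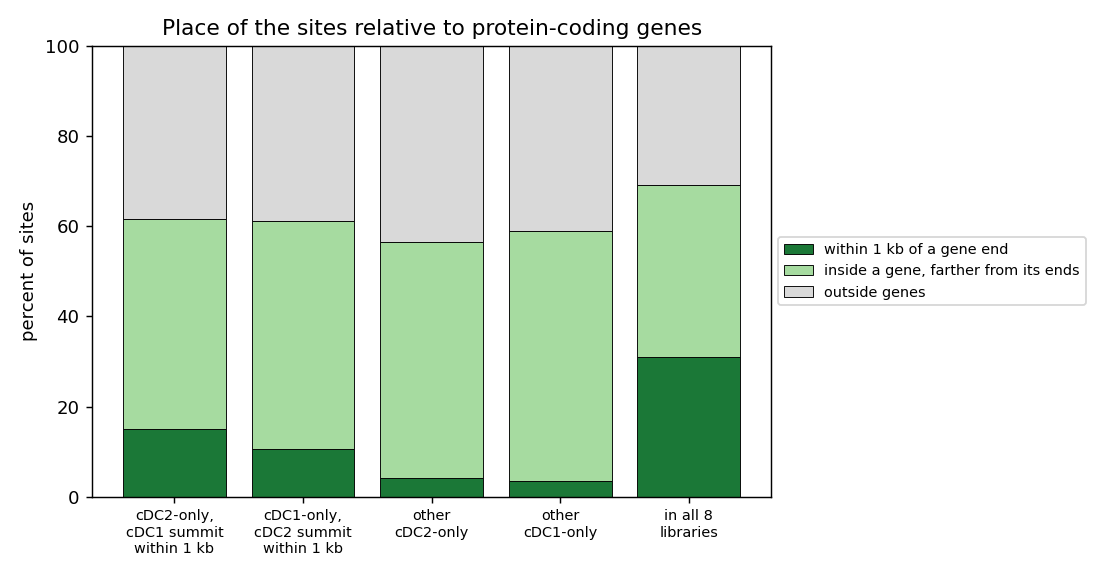
Percent of sites within 1 kb of a gene end, inside a gene and outside genes, for the 458 cDC2-only and 510 cDC1-only sites near an other-subset summit, the other cDC2-only and cDC1-only sites, and the sites found in all 8 libraries. The share at gene ends was 15.1% at these cDC2-only and 10.6% at these cDC1-only sites, 4.20% at the other cDC2-only and 3.51% at the other cDC1-only sites, and 31.1% at sites of all 8 libraries.

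Each site was given to its nearest protein-coding gene within 50 kb, and 106 sites had none. The cDC2-only sites fell to 394 genes (2.37% of the 16626 genes with any site) and the cDC1-only sites to 436 genes (2.62%), together 785 genes. Only 69 genes had more than 1 site, and 45 had sites of both kinds. The most were at Foxp1, a forkhead transcription factor, with 4 cDC2-only sites and 1 cDC1-only site. Celf2, an RNA-binding splicing factor, had 1 cDC2-only and 3 cDC1-only sites. Rin3, an activator of Rab5 GTPases, had 2 cDC2-only sites and 1 cDC1-only site, while Sgms1, a sphingomyelin synthase, and Vopp1 each had 1 cDC2-only and 2 cDC1-only sites.

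Genes of cDC2 identity with such a site were few. Of the 27 genes of that list with any site, 4 (14.8%) were the nearest gene of a cDC2-only site, beside 2.37% of all genes with a site. They were Dtx1, Esam, Klf4 and Zeb2. Klf4 and Notch2, 2 of the 27 (7.41%), were the nearest gene of a cDC1-only site, beside 2.62% of all genes. The counts were not corrected for the number of sites that a gene holds. Apart from Klf4, the calls near these genes were not exchanges of well-ranked summits.

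Zeb2, a transcription factor that favours cDC2 and plasmacytoid cells, had a cDC2-only site inside the gene (chromosome 2, 45034146 to 45034228), ranked 47208 and 37666 in KO cDC2 and 38106 and 52865 in WT cDC2. The cDC1 summit 360 bp away was called in the library KO cDC1 2 only, at rank 61008, close to the end of the kept list. Notch2, the receptor that splenic Esam+ cDC2 need, had a cDC1-only site (chromosome 3, 98129019 to 98129071), ranked 27465 and 31060 in KO cDC1 and 28848 and 31683 in WT cDC1. The cDC2 summit 596 bp away was found in KO cDC2 1 alone, at rank 50520. Dtx1, a Notch pathway ubiquitin ligase, had a cDC2-only site with a cDC1 summit 474 bp away in KO cDC1 1 alone. Esam, an adhesion molecule of splenic cDC2, had a cDC2-only site 719 bp from a site of all 8 libraries. For Zeb2, Notch2 and Dtx1 membership rests on that 1 library of the other subset.

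Of the 26 cDC1 identity genes with a site, Btla had a cDC2-only site (3.85%, beside 2.37% of all genes) and Cadm1 and Tlr3 had cDC1-only sites (7.69%, beside 2.62%). Tlr3, the receptor for double-stranded RNA that cDC1 carry, had its cDC1-only summit in a site at -516 bp from an annotated start and overlapping the annotated gene span (chromosome 8), at 45410989 and 45411049 in KO cDC1 and 45411029 and 45411052 in WT cDC1. Its neighbouring site was present in all 8 libraries, at 45410199 and 45410304 in KO cDC2, at 45410192 and 45410268 in WT cDC2, at 45410328 and 45410327 in KO cDC1 and at 45410269 and 45410329 in WT cDC1. In cDC1 the shared summit was the better ranked, at 22856, 11836, 14854 and 13825 against 27023, 41833, 30375 and 27663 for the cDC1-only summit. Cadm1, an adhesion molecule of cDC1, had a cDC1-only site 890 bp from a cDC2 summit found in WT cDC2 1 alone. Btla, an inhibitory receptor, had a cDC2-only site with a cDC1 summit 717 bp away in KO cDC1 2 and WT cDC1 2.

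Il12b, which encodes the p40 chain of interleukin 12, the cytokine by which cDC1 drive T helper 1 responses, showed the added-summit form at its promoter (chromosome 11). All 8 libraries shared a summit, which lay at 44399010 and 44399107 in KO cDC2, 44399108 and 44399099 in WT cDC2, 44399118 and 44399112 in KO cDC1, and 44399099 and 44399114 in WT cDC1. The cDC1 libraries had another summit at 44399830 and 44399796 in KO cDC1 and at 44399851 and 44399849 in WT cDC1, in a site at -240 bp from the start. The cDC2 libraries had 0 summits there, lower-ranked ones included, which does not show that the site was closed in cDC2. The ranks of the cDC1-only summit were 20366 and 32024 in KO cDC1 and 38527 and 19335 in WT cDC1.

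Other genes of cytokines and maturation were Il15ra, which presents interleukin 15, with a cDC1-only site 581 bp from the nearest cDC2 summit, and Cd83, a maturation marker, with a cDC2-only site 654 bp from a cDC1 summit of WT cDC1 2 alone. With Il12b these made 1 of 28 genes of that list with a cDC2-only site (3.57%) and 2 of 28 with a cDC1-only site (7.14%), beside 2.37% and 2.62% of all genes. Among 24 innate sensing genes, 2 (8.33%, beside 2.37%) had cDC2-only sites, Nod1 and Tlr8, and 2 (8.33%, beside 2.62%) had cDC1-only sites, Irak4 and Tlr6. At Irak4, the kinase below the toll-like receptors, the cDC1-only summit was well ranked, at 18695 and 13273 in KO cDC1 and 16085 and 16393 in WT cDC1, beside a site of all 8 libraries 954 bp away. Tlr8, a sensor of RNA in endosomes, had a cDC2-only site 528 bp from cDC1 summits of 3 libraries, and 3 cDC1 libraries had a lower-ranked summit at the site itself.

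The general dendritic cell genes Kit and Bcl11a had cDC2-only sites (2 of 17, 11.8%, beside 2.37% of all genes), and Flt3 and Bcl11a cDC1-only sites (2 of 17, 11.8%, beside 2.62%). Flt3, the receptor whose ligand drives cDC development, had its cDC1-only summit inside the gene, 491 bp from a site of all 8 libraries that in cDC1 was better ranked. The 40 dendritic cell transcription factor genes had cDC1-only sites at Etv6 and Gfi1 (5.00%, beside 2.62%) and 0 cDC2-only sites (beside 2.37%). Of 19 interferon-stimulated genes Gbp5, a guanylate-binding protein, had a cDC2-only site (5.26%, beside 2.37%), and 0 had a cDC1-only site (beside 2.62%).

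The HDAC list had cDC1-only sites at 3 of 34 genes (8.82%, beside 2.62% of all genes with a site), Hdac9, Mta3 and Sin3a. It had cDC2-only sites at 0 of 34, beside 2.37% of all genes. Sin3a, the scaffold of the Sin3 complex that carries HDAC1, had its cDC1-only summit 501 bp past the start (chromosome 9), at 57076891 and 57076955 in KO cDC1 and 57076794 and 57076961 in WT cDC1. The ranks there were 11134 and 20847 in KO cDC1 and 19269 and 17503 in WT cDC1. A stronger summit 590 bp away, ranked 5525 to 8957, was in all 8 libraries. Hdac9, a class IIa deacetylase, had a cDC1-only site inside the gene beside a site of all 8 libraries. Mta3, a subunit of NuRD, had one with a cDC2 summit in KO cDC2 2 alone.

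The BCL2 family, which sets the threshold for apoptosis, had cDC2-only sites at 3 of 14 genes (21.4%, beside 2.37% of all genes with a site) and a cDC1-only site at 1 (7.14%, beside 2.62%). Bcl2l1, encoding the survival protein BCL-XL, had a cDC2-only site inside the gene, ranked 34787 and 29822 in KO cDC2 and 43962 and 51052 in WT cDC2, 628 bp from a site of all 8 libraries. That shared site was ranked 48139, 46631, 50763 and 39300 in the cDC2 libraries and 12130, 23380, 13191 and 13011 in the cDC1 libraries, without overlap. Bcl2l11, encoding the death-promoting protein BIM, and Pmaip1, encoding NOXA, also had cDC2-only sites beside sites of all 8 libraries. Mcl1, a survival gene, had a cDC1-only site beside a partly shared one.

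Among the sites of the list genes named here, a lower-ranked summit of the other subset lay at the site itself in 3 libraries at Tlr8, in 2 at Notch2 and Bcl2l1, and in 1 at Zeb2, Esam, Cadm1, Tlr6, Bcl2l11, Kit, Cybb and Ywhaz. The other sites of the named list genes had 0.

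Markers of other cell types were rare. Among the T cell, NK cell, granulocyte and erythroid lists 0 genes had a site of either kind. There was a cDC2-only site at Cd79a of the B cell list (1 of 11, 9.09%) and at Cybb, which stands in both the plasmacytoid (1 of 12, 8.33%) and the cross-presentation list (1 of 18, 5.56%). Ywhaz, of the housekeeping list (1 of 13, 7.69%), also had a cDC2-only site. The share over all genes was 2.37%. These lists had 0 genes with a cDC1-only site. A part of admixed cells in these sites was not tested.

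Because the rule used the subset and not the genotype, the position of the summits can be compared between KO and WT, but only within a site. The fit took sites where the KO and WT summits of a subset had been chained together, in steps of at most 250 bp. A larger move would have put the KO and WT summits at separate sites, which were not fitted. The counts and the small differences that follow apply to moves within a site. In cDC2, limma called 0 of 40661 sites (0.0%) at an adjusted p of 0.05, and in cDC1 0 of 41868 (0.0%), among them 0 of the 458 and 0 of the 510 sites. At an unadjusted p of 0.05 the counts were 1979 (4.87%) in cDC2 and 2076 (4.96%) in cDC1, of which 21 of 458 cDC2-only sites (4.59%) and 11 of 510 cDC1-only sites (2.16%). The median absolute difference between KO and WT was 32.5 bp at the cDC2-only sites, beside 26 bp at all cDC2 sites, and 25.5 bp at the cDC1-only sites, beside 21.5 bp at all cDC1 sites. The median standard error was 38.3 bp at the cDC2-only and 32.0 bp at the cDC1-only sites, so differences of this size were not detectable with 2 libraries per group.

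The largest difference among the 968 sites was at Chst15, a chondroitin sulfate sulfotransferase (chromosome 7), where the cDC2-only summit lay at 132304608 and 132304607 in KO cDC2 and at 132304863 and 132304806 in WT cDC2. The difference of -227 bp had a standard error of 30.5 bp and a limma adjusted p of 0.689, the lowest among the cDC2-only sites. At Gbp5 the cDC2-only summit lay at 142497487 and 142497458 in KO cDC2 and at 142497302 and 142497288 in WT cDC2, 177.5 bp apart in the mean (SE 29.0 bp, limma adjusted p = 0.787). At Fadd the cDC2 summit of the pair differed by 114 bp (SE 18.7 bp, limma adjusted p = 0.797). The lowest limma adjusted p among the cDC1-only sites was 0.929, at Wasl, an activator of actin branching, with -196.5 bp (SE 33.1 bp). None of the differences at Chst15, Gbp5, Fadd and Wasl passed the test.

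The distance between the cDC2 and the cDC1 summit differed by at most 93 bp between KO and WT at 26 of the 28 reciprocal pairs. It was 417 bp in KO and 407 bp in WT at Tom1. At Insig1 it was 760.5 bp in KO and 717 bp in WT, and at Klf4 415 bp in KO and 360 bp in WT. At Abcc5 it was 408.5 bp in KO and 406.5 bp in WT. The largest differences were at Slc23a4, with 804 bp in KO and 1010 bp in WT, and at Foxp1, with 417.5 bp in KO and 308 bp in WT. These distances are means of 2 libraries on each side and were not tested. The rule placed the KO and WT summits of a subset in the same site, which limits how far the distances can differ. Small differences here do not show that the distance is unchanged in KO. The neighbouring summit was seen in both KO and in no WT library of the other subset at 8 cDC2-only and 16 cDC1-only sites, and in both WT and no KO library at 11 cDC2-only and 13 cDC1-only sites.

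The rule was also applied within the libraries of 1 genotype, and the sites it chose were looked up in the libraries of the other genotype. Of 1296 cDC2-only sites chosen in KO, 399 (30.8%) had summits in both WT cDC2 libraries and none in WT cDC1, beside 7.33% of all sites. Of 1519 chosen in WT, 402 (26.5%) were cDC2-only in KO, beside 6.43% of all sites. For cDC1-only sites the counts were 431 of 1143 (37.7%) chosen in KO, beside 9.40% of all sites, and 423 of 1345 (31.4%) chosen in WT, beside 8.20%. The subset-only sites without an other-subset summit within 1 kb were found again at higher rates, 39.1% of those chosen in KO and 36.2% of those chosen in WT for cDC2, and 58.4% of those chosen in KO and 50.1% of those chosen in WT for cDC1. Most sites chosen in 2 libraries against 2 were therefore not subset-only in the other genotype's libraries. Of the 968 sites, 787 were among those chosen with the KO libraries alone and 792 among those chosen with the WT libraries alone. These 2 counts are largely fixed by the rule. The 968 sites already had summits in all libraries of 1 subset and none of the other, in both genotypes.

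**Figure D5:**
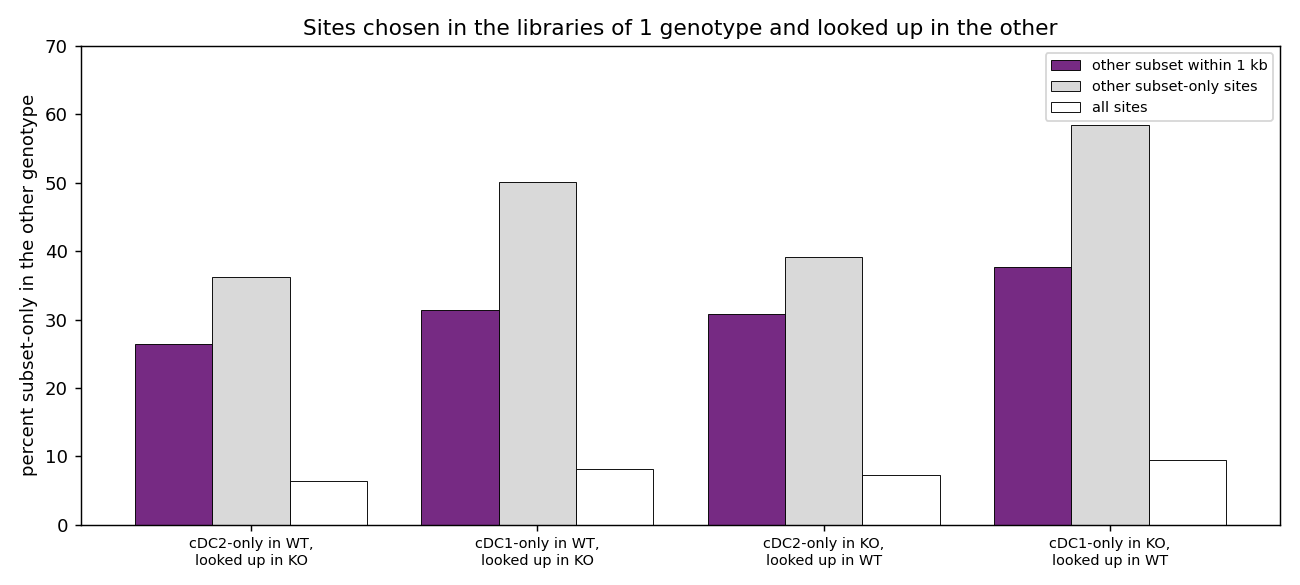
Percent of sites chosen as subset-only in the libraries of 1 genotype that were subset-only in the libraries of the other, for sites with an other-subset summit within 1 kb (purple), the remaining subset-only sites (grey) and all sites (white). The purple bars stand at 26.5% to 37.7%, above the white bars (6.43% to 9.40%) and below the grey bars (36.2% to 58.4%).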

How the data were processed

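Summit lists of 8 ATAC-seq libraries were analysed. The submitters' processing notes name the aligner Bowtie2, the caller MACS2, SAMtools, MultiQC and the build GRCm38 (mm10). Versions, filters and calling settings are not given in the sources used here. Each deposited list gives 1 position and 1 score per peak. The score is the authors' −log10 of a p-value or q-value, with a lowest value of 1.30 to 1.36, and was used only to rank summits within a library. Read counts are not part of the lists, so depth and counting error are unknown. There were 0 columns of other samples.

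The 61737 best summits of each library were kept, the length of the shortest list, and chained into sites when at most 250 bp apart. The members, the gene lists and the rule were chosen with earlier results of these data known. The named genes are those of the reciprocal pairs, of the lists, of the limits and the 5 genes with most sites. Positions in each library are given for some pairs. Chst15 and Wasl were named from the fit. Of the 10 best-ranked sites per subset, those outside the pairs are not named. Some of these had a neighbouring site that their own subset also had. The results of 2 genes are not reported here. Genes were the nearest RefSeq span on GRCm38.p6 within 50 kb. Starts and promoter sequences came from the same annotation, which gave none on chromosome 18 here and covered 17492 of the 21887 protein-coding genes. Positions (KO minus WT, in bp) were fitted for each subset over all sites found in its 4 libraries, with limma 3.58.1 in R 4.3.3, trend and robust variance, a rounding variance added and Benjamini-Hochberg adjustment. The fit was tested on simulated data. Groups followed the sample titles. Same-numbered libraries did not deviate together (correlation of deviations 0.0025 in cDC2 and -0.0017 in cDC1), so the numbers were not taken as pairs. Alternatives were other limits, chain lengths and distances, leaving out libraries, and 1 genotype alone.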

Additional observations from a re-analysis of the deposited data

Results flagged for a closer look

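The library KO cDC1 2 stood apart from the other three cDC1 libraries by its distance to the nearest of them, in 4 measures. It had 96031 deposited summits and a score of 7.20677 at the limit of 61737 summits. It had a near summit at 304 of the 458 cDC2-only sites and a lower-ranked summit at the site itself at 175 of them. In the same way KO cDC2 1 stood apart from the other cDC2 libraries with a near summit at 351 of the 510 cDC1-only sites, against 338 to 340. Chance alone gives such a result in about 5% of groups of 4 if the values are normally distributed. Several measures were examined in each subset, so this share applies to each measure and not to the whole search. The measures of KO cDC1 2 are also not independent, since a longer list leaves more summits below the limit.

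Summits outside the kept 61737, which the rule did not use, lay at sites called subset-only. A lower-ranked cDC1 summit lay at 243 of the 458 cDC2-only sites, and a lower-ranked cDC2 summit lay at 105 of the 510 cDC1-only sites. The deposited lists were longer in cDC1 than in cDC2 libraries apart from KO cDC2 2, and the part of list length in this difference was not tested.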

How the results depend on the processing

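Which sites met the rule depended on its limits, while the 0 calls between KO and WT were found in every fit run. With all deposited summits 823 cDC1-only sites met the rule, against 510 with equal lists, and 618 of the 968 sites did so still. With the list length divided by 2, 264 sites met it (116 cDC2-only, 148 cDC1-only), with 20.1% at gene ends, a median distance of 648.5 bp, 62.5% beside a site that the own subset also had (76.0% otherwise) and 18 pairs, and 79 of the 968 sites were among them. Chaining at 100 bp gave a median distance of 493 bp, 56.2% beside such a site and 58 pairs. Chaining at 500 bp gave 606 sites (268 cDC2-only, 338 cDC1-only), 735 bp, 81.7% and 11 pairs. A reach of 500 bp gave 345 sites (183 cDC2-only, 162 cDC1-only), 15.9% at gene ends, 391 bp, 67.5% and 16 pairs. A reach of 2 kb gave 1887 sites (773 cDC2-only, 1114 cDC1-only), 9.43% at gene ends, 980 bp and 44 pairs. KO libraries alone gave 2439 sites (1296 cDC2-only, 1143 cDC1-only), 21.9% at gene ends, 560 bp, 68.0% and 223 pairs. WT libraries alone gave 2864 sites (1519 cDC2-only, 1345 cDC1-only), 22.1%, 547 bp, 69.4% and 245 pairs. With each library left out in turn there were 1096 to 1243 sites (501 to 683 cDC2-only, 539 to 698 cDC1-only), 13.6% to 15.4% at gene ends, medians of 578 to 594 bp, 73.0% to 77.4% beside such a site and 39 to 48 pairs, and 916 to 944 of the 968 sites and 27 to 28 of the 28 pairs were among them. Fewer libraries make the rule easier to meet by its construction. The alternatives for the pairs were chosen after seeing the data.

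With the replicate number as a block, limma called 0 sites in cDC2 and 0 in cDC1, with 1806 and 1842 sites at an unadjusted p of 0.05. It also called 0 in each subset without the trend, without the rounding variance, on the better-ranked sites alone, with all deposited summits, with a chain of 100 bp and without each library in turn.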
